A study of Mus musculus with 32 samples.

Results

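The mitosis and G2/M genes are 38 mouse genes whose products start, carry out or watch over cell division. They were taken by name from a list, each gene stands for its most abundant transcript, and all 38 were found among the 25067 genes of the count table. Every member passed the filter on low values, a group mean above 1 RPKM (reads per kilobase of transcript, scaled to the depth of the library) in any of the groups, as did 11279 genes in all.

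The members were measured by RNA-seq in 32 libraries of bone marrow-derived macrophages (BMDMs), 4 in each of 8 groups, which set out how the nuclear receptor Nur77 affects the response of macrophages to lipopolysaccharide (LPS), a bacterial product that activates Toll-like receptor 4. BMDM-WT came from wild-type littermates and BMDM-Nur77-KO from mice without Nur77, called WT and KO here. Both were C57Bl6/J males of 6 to 12 weeks. Their marrow cells were grown for 7 days in medium conditioned by L929 cells, a source of the growth factor M-CSF, before they were left untreated (0 h) or given 100 ng/ml LPS for 1, 5 or 18 h. The KO strain goes back to a cross of mice with Cre under the cytomegalovirus promoter and mice with a loxP-flanked Nr4a1 gene, which encodes Nur77, so that the gene is deleted in the whole body. The labels name this genotype only as cre, and the methods state that the animals no longer carried the recombinase. The 4 replicates of a group were seeded as replicates, but the number of mice behind them is not given, so p-values measure the spread between these libraries, which may be technical.

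A cell enters mitosis when cyclin-dependent kinase 1 (Cdk1), bound to cyclin A or B, is switched on by the Cdc25 phosphatases. Polo-like and Aurora kinases, motor proteins and microtubule-binding proteins then build the spindle, the spindle checkpoint holds the cell until every chromosome is attached, and the anaphase-promoting complex with Cdc20 ends mitosis by having the cyclins destroyed. Most of these genes are transcribed only in late S phase, G2 and mitosis, under the control of factors such as Foxm1 and the complexes that bind CCAAT boxes and the cell cycle genes homology region (CHR). They are low in cells that have left the cycle. BMDMs in M-CSF still divide in part, and LPS is known to halt their growth.

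The libraries held 8742362 to 15780926 tags on the transcripts kept, with a median of 11847140. Nr4a1, the targeted gene, was lower in every KO library than in every WT library at 0 h (4.44 to 7.00 against 15.5 to 25.7 CPM, tag counts scaled to library size), at 1 h (146 to 243 against 358 to 485 CPM) and at 5 h (0.109 to 0.688 against 0.797 to 1.06 CPM). At 18 h the ranges overlapped (0 to 0.448 against 0.174 to 0.477 CPM). Tags on the part of the transcript outside the deletion would be counted too, and the deleted exons are not given in the sources used here. The 10 macrophage markers, among them Adgre1, Itgam and Csf1r, summed to 11465 to 19231 CPM in a library, against 0 to 62.6 CPM for each of 5 lists of markers of granulocytes and their progenitors, lymphocytes, fibroblasts, red cells, and dendritic and mast cells. Of the 15 granulocyte and progenitor markers, Elane, Prtn3, Ctsg, Ms4a3 and Ly6g had at most 3 counts in every library, while 6 passed the filter, and S100a8 reached 19.9 CPM, S100a9 16.3 CPM and Ngp 15.6 CPM. A pair of KO libraries stood apart from their groups. Genes of low GC content stood higher against genes of high GC content than the group mean by 0.92 (log2) in replicate 1 at 5 h and by 0.64 in replicate 4 at 18 h, where the other libraries lay between -0.49 and 0.43. The members have a median GC content of 46.9%, against 50.2% for all genes tested, and the differences of the members between genotypes that were called at these times are given with and without these libraries.

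Promoters of 31 members are in the RefSeq table of GRCm38.p6, which gives the 250 bases before and the 50 bases after a start site. No entry was found for Aurkb, Ccna2, Cdc25c, Foxm1, Incenp, Kif20a and Tpx2. These windows were searched on both strands for the CCAAT box (CCAAT, or ATTGG on the other strand), the site of the factor NF-Y, and for the CHR, the site of the MuvB complexes that repress cell cycle genes in resting cells and activate them in G2. The CHR was taken as TTTGAA with its reverse TTCAAA, or as TTCGAA. Overlapping matches were counted. A CCAAT box was in 26 of the 33 promoters of the members (78.8%), against 37.4% of all 32851 promoters, and 17 promoters (51.5%) held it more than once, against 11.7%. A CHR was also in 26 of 33 (78.8%), against 19.2% of all promoters. Both motifs were in 23 of 33 (69.7%), against 7.525% of all. Cdk1 has CHR letters at positions -71 and -15 from the start and 3 CCAAT boxes, Cdc20 a CHR at -18 between CCAAT boxes at -53 and -8, and Kif11 a CHR at -19 and a CCAAT box at -45. Birc5, Mad2l1, Nuf2 and Nusap1 had neither motif in the window. A match says only that these letters are there. The 250 bases before the start are printed for 5 members that hold both motifs and fell after LPS, and for Birc5 and Mad2l1 as examples with neither. They read 5′ to 3′ along the gene, with CCAAT boxes and CHR letters in capitals.
Cdk1, chr10:69352913-69353162, minus strand: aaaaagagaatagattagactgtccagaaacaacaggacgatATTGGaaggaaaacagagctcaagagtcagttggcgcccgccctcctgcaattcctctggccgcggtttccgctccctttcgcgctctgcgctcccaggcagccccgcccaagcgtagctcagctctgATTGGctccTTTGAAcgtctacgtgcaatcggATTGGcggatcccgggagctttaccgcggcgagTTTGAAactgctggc
Ccnb2, chr9:70421555-70421804, minus strand: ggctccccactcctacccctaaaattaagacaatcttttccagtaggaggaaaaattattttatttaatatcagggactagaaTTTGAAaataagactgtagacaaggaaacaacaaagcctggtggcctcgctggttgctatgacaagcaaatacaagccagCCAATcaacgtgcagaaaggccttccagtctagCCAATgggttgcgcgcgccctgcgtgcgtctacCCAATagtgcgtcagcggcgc
Cdc20, chr4:118437344-118437593, minus strand: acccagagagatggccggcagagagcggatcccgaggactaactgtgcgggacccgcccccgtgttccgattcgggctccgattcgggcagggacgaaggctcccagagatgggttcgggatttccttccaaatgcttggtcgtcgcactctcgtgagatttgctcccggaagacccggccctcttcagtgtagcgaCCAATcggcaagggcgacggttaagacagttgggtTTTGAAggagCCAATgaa
Ube2c, chr2:164769679-164769928, plus strand: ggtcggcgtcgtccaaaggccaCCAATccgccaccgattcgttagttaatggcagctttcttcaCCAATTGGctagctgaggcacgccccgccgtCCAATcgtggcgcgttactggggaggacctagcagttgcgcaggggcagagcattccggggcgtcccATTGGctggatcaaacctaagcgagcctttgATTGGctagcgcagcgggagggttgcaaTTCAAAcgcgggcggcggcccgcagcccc
Kif11, chr19:37376132-37376381, plus strand: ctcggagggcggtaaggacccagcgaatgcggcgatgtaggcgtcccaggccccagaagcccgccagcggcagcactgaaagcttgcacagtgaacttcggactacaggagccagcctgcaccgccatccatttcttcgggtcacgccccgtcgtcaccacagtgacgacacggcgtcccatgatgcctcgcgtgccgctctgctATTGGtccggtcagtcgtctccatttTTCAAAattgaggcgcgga
Birc5, chr11:117848987-117849236, plus strand: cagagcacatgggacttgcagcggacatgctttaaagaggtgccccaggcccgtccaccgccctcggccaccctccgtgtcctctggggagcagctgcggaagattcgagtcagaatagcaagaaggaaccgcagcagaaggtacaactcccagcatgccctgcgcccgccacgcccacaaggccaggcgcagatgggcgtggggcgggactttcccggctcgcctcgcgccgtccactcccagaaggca
Mad2l1, chr6:66534971-66535220, plus strand: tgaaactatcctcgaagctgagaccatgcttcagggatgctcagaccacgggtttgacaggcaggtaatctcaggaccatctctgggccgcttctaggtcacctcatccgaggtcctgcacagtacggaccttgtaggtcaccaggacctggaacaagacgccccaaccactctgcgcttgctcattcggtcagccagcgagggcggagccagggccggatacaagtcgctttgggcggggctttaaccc

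Levels between genes were compared per length, as RPKM. In untreated WT cells, the highest members were Top2a, which untangles DNA before chromosomes part, at a mean of 32.7 RPKM, Cenpa, the histone of the centromere, at 29.8, and Incenp, the scaffold of the chromosomal passenger complex, at 28.1. Next came Ube2c, the ubiquitin-conjugating enzyme of the anaphase-promoting complex, at 20.2, and Ccna2 (cyclin A2) at 19.7. The lowest were Cdc25c at 1.66 RPKM and the kinetochore protein Cenpf at 1.92 RPKM. After 18 h of LPS, the order in WT was led by Tpx2, a spindle assembly factor that activates Aurora A, at 34.9 RPKM, followed by Incenp at 22.5, Mad2l1 at 6.51, Cenpa at 3.66 and Mki67 at 3.32 RPKM, and Cenpf was last at 0.0119 RPKM. In KO at 18 h, Tpx2 stood at 67.6 RPKM and Incenp at 28.1 RPKM, against 9.62 RPKM for Mad2l1, the next member.

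Most of these RNAs had fallen by 5 h of LPS and fell further by 18 h, in both genotypes. The question here is how the module responds to LPS over time in each genotype, and calls were made at edgeR adjusted p values below 0.05 with changes of more than 1 log2 unit. In WT, 29 members fell and 1 rose at 5 h against 0 h, where 18% of all genes tested fell and 15.7% rose, and 36 fell and 1 rose at 18 h, where the shares were 14.3% and 13.1%. In KO, 28 members fell and 1 rose at 5 h (16.6% and 16% of all genes), and 34 fell and 1 rose at 18 h (16.4% and 15.4%). The median log2 fold change of the members was -1.76 at 5 h and -3.67 at 18 h in WT and -1.70 and -3.05 in KO, against -0.14, -0.01, -0.12 and -0.03 for all genes tested. Cdc25c and Cenpf had at most 3 counts in each WT library at 18 h. With the drop of both set to the lower limit of its 95% counting interval, the median at 18 h in WT was -3.53. The comparisons at 5 h and 18 h share their 0 h libraries. The one member that rose was Tpx2 each time. In bulk libraries, fewer dividing cells and less RNA in each dividing cell cannot be told apart. Scaling by total counts alone moved the median of all genes by -0.63 (log2) at 5 h and by -0.37 at 18 h in WT, and by -0.62 and -0.45 in KO. The changes given here are relative to the bulk of the genes. With that scaling Tpx2 was not called at 5 h in WT.

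The summed level of the 38 members was 1203 to 1458 CPM in untreated WT libraries and 339 to 375 CPM at 18 h, which is 27.0% of the mean at 0 h. In KO it was 948 to 1184 CPM at 0 h and 474 to 719 CPM at 18 h, which is 52.1%, and 46.5% without KO replicate 4. These shares depend on how transcripts are counted: with all transcripts of a gene summed, which counts shared exons more than once, they were 49.5% in WT and 105% in KO. Most of what was left at 18 h came from Mki67, Tpx2 and Incenp, picked out after their values were seen. Without them, the sum went from 936 to 1119 CPM down to 94.9 to 104.5 CPM in WT (9.67% of 0 h) and from 732 to 901 CPM down to 92.8 to 124 CPM in KO (13.0%).

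**Figure D1:**
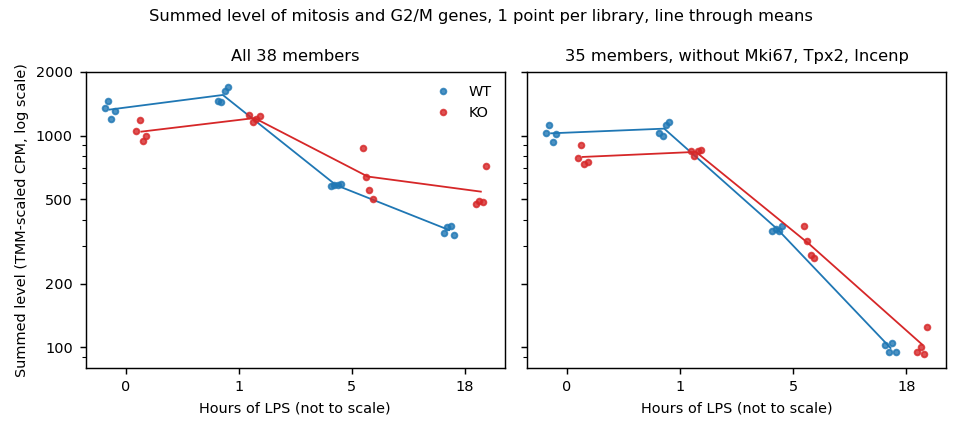
Summed TMM-scaled CPM of the members (y axis, log scale) against hours of LPS (x axis, not to scale) for WT (blue) and KO (red), with 1 point per library and a line through the means, for all 38 members on the left and without Mki67, Tpx2 and Incenp on the right. Both genotypes lie lower at 5 h and 18 h than at 0 h and 1 h, and KO replicate 4 at 18 h sits above its group at 719 CPM on the left.

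**Figure D2:**
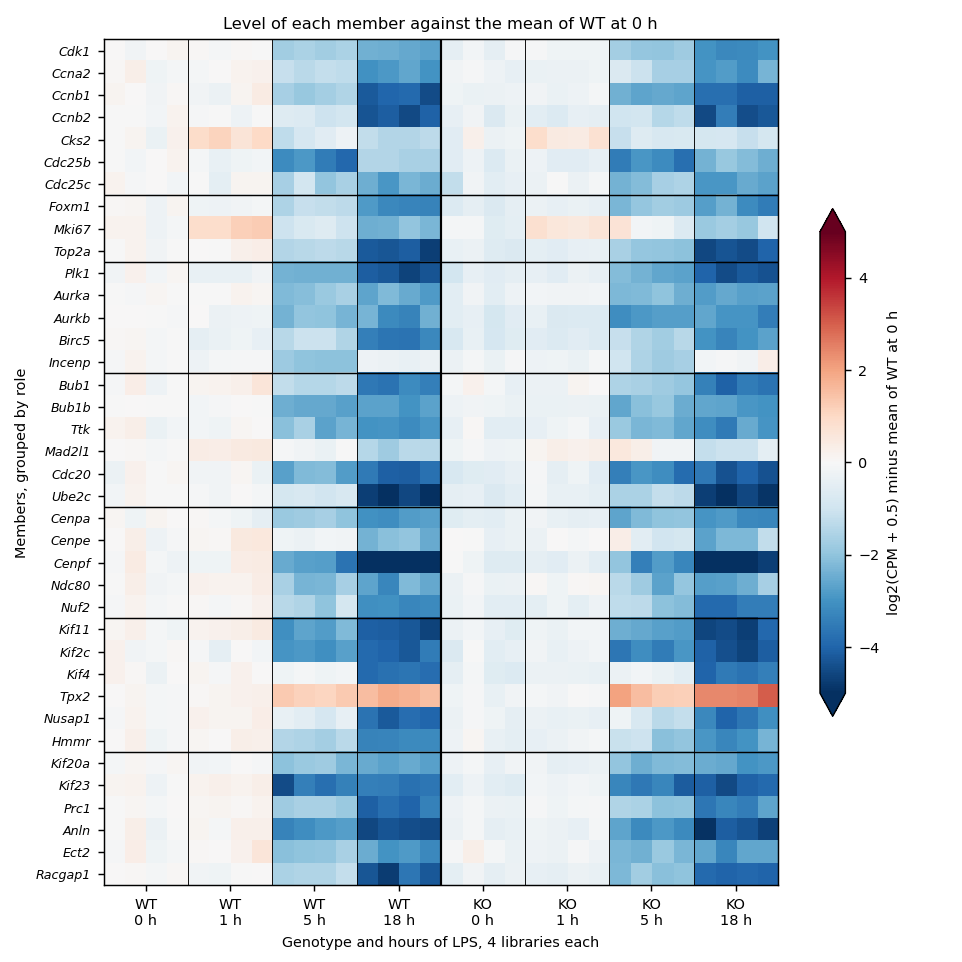
Level of each member in each library as log2(CPM + 0.5) minus the mean of the 4 WT libraries at 0 h (colour scale from -5 to 5), members in rows grouped by role and libraries in columns by genotype and hours of LPS. Nearly all rows turn blue at 5 h and 18 h in both genotypes, the Tpx2 row turns red, and the Incenp row is darkest at 5 h.

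At 1 h, almost nothing had moved. Mki67, which coats the chromosomes in mitosis and is the standard marker of dividing cells, had 181, 184, 136 and 151 CPM in the WT libraries at 0 h and 300.4, 298, 369 and 393 CPM at 1 h. It rose 2.08-fold in this hour (log2 fold change 1.06 ± 0.20, adjusted p = 0.0002, edgeR) and was the only member called in WT, where 3.43% of all genes rose and 1.76% fell. In KO it went from 149, 152, 107 and 114 CPM to 279, 237, 229.7 and 254 CPM, a log2 fold change of 0.94 that is just under the limit. In KO, 0 members were called, beside 4 at an unadjusted p under 0.05, 3 of them with an adjusted p under it, and 0 by DESeq2, where 3.23% of all genes rose and 1.3% fell. The next in size was Cks2, a small subunit of Cdk1 complexes, which had a log2 fold change of 0.99 in WT and 0.88 in KO. The difference between the genotypes in this first hour had 0 members with an adjusted p under 0.05 (3 unadjusted, and 0 by DESeq2), where 0.0443% of all genes were above and 0.0266% below by edgeR. The call of Mki67 in WT is at the limit of size: its log2 fold change was 0.91 with total counts alone and 0.98 without WT replicate 3 at 0 h or without WT replicate 4 at 1 h, where it is not called. With DESeq2's size factors, 2 members were called higher in WT at 1 h, and 5 had an unadjusted p under 0.05 by edgeR in the main fit.

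Of Cdk1, its cyclins and its phosphatases, all 7 had fallen in WT by 18 h, 6 of them in KO. Cdk1 (chr10:69335146-69352912, mm10) had 54.6, 48.2, 55.5 and 59.3 CPM in WT at 0 h, 16.1, 18.0, 16.0 and 18.0 CPM at 5 h and 9.89, 9.63, 8.70 and 8.03 CPM at 18 h. The groups did not overlap, and the 18 h level was 6.00-fold below that at 0 h (log2 fold change -2.58 ± 0.10, adjusted p = 5.3e-20, edgeR). In KO, Cdk1 went from 39.2, 49.0, 39.5 and 52.3 CPM to 6.45, 5.35, 5.47 and 6.38 CPM. Its cyclin partners were lower too. Ccnb1 (cyclin B1) went from 24.1, 22.3, 19.4 and 22.9 CPM to 0.732, 0.953, 1.04 and 0.518 CPM in WT, a 27.1-fold drop. Ccnb2 (cyclin B2) went from 14.9, 14.7, 13.5 and 16.8 CPM to 0.275, 0.381, 0.174 and 0.432 CPM, the latter on 2 to 5 counts a library. Ccna2 went from 60.0, 70.5, 49.1 and 53.6 CPM to 6.59, 7.53, 9.22 and 6.82 CPM. Cdc25b, the phosphatase that first activates Cdk1 in G2, took another course: it was at 24.3, 22.8, 25.0 and 27.9 CPM at 0 h, 2.39, 2.94, 1.78 and 1.18 CPM at 5 h and 8.79, 8.77, 7.83 and 7.86 CPM at 18 h in WT. It was lowest at 5 h and then rose again, by 2.002 (log2) in WT and by 1.24 in KO. Cks2 had log2 fold changes at 18 h against 0 h of -1.71 in WT and of -0.95 in KO, where it misses the limit of size. Cdc25c had at most 3 counts in each 18 h library, and its 0 h level in WT was 20.3 times the 18 h level (95% counting interval 9.68 to 51.3, which covers counting error only).

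The transcription factor Foxm1, the DNA topoisomerase Top2a and Mki67 fell in both genotypes by 18 h. Top2a (chr11:98992947-99024199) had 170.0, 194, 152 and 167 CPM in WT at 0 h, 62.2, 64.6, 68.5 and 64.8 CPM at 5 h and 8.70, 8.20, 9.22 and 6.04 CPM at 18 h, a 21.3-fold drop in all (log2 fold change -4.41 ± 0.14, adjusted p = 3.4e-22, edgeR). Foxm1, which activates many of the other members in G2, went from 33.1, 34.1, 26.6 and 35.04 CPM to 10.7, 14.2, 13.5 and 12.8 CPM and 4.03, 2.95, 2.78 and 2.68 CPM in WT. Mki67 (chr7:135689784-135716450), after its peak at 1 h, was at 77.9, 95.2, 103 and 77.9 CPM at 5 h and 29.4, 30.5, 41.1 and 32.5 CPM at 18 h in WT. Its log2 fold change at 5 h against 0 h was -0.88 in WT and 0.30 in KO, with neither past the limit of size.

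Among the mitotic kinases and the chromosomal passenger complex, Plk1, Aurka, Aurkb and Birc5 fell at 18 h in both genotypes, and Incenp did not. Plk1 (polo-like kinase 1) had 14.3, 18.9, 14.9 and 17.6 CPM in WT at 0 h, 2.73, 2.69, 2.66 and 2.72 CPM at 5 h and 0.458, 0.381, 0.174 and 0.345 CPM at 18 h. Aurka (Aurora A, which acts at spindle poles) was at 16.0, 15.9, 17.5 and 16.4 CPM at 0 h and 2.20, 3.15, 2.44 and 1.90 CPM at 18 h. Aurkb (Aurora B, the kinase of the passenger complex) had log2 fold changes of -2.98 in WT and -2.65 in KO. Birc5 (survivin), a subunit of that complex, went from 21.1, 21.8, 19.1 and 19.9 CPM to 1.46, 1.14, 1.13 and 1.73 CPM in WT and from 11.5, 15.8, 11.2 and 13.4 CPM to 2.15, 1.60, 2.103 and 2.78 CPM in KO. Incenp (chr19:9872295-9899489), which holds Aurora B and survivin together, was at 87.7, 102, 85.1 and 89.1 CPM at 0 h, 25.1, 22.0, 21.3 and 21.8 CPM at 5 h and 74.97, 73.8, 70.0 and 73.1 CPM at 18 h in WT. It fell 4.03-fold by 5 h (log2 fold change -2.01 ± 0.13, adjusted p = 7.4e-15, edgeR) and then rose 3.24-fold between 5 h and 18 h (1.69 ± 0.13, adjusted p = 6.7e-13, edgeR). In KO it was at 74.0, 85.2, 71.0 and 86.2 CPM, 45.2, 30.7, 26.4 and 28.0 CPM and 81.5, 87.1, 79.9 and 115 CPM at these times, again lowest at 5 h. It was the one member of 38 that was not called at 18 h against 0 h in WT (-0.32).

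Of the spindle checkpoint and the anaphase-promoting complex, all 6 members fell in WT and 5 in KO by 18 h. Cdc20, the activator of the anaphase-promoting complex, had 7.86, 11.3, 9.45 and 10.3 CPM in WT at 0 h, 1.02, 1.71, 1.78 and 0.946 CPM at 5 h and 0.366, 0.0953, 0.0870 and 0.259 CPM at 18 h, the last on 1 to 4 counts a library. Ube2c had 17.7, 21.8, 19.4 and 19.3 CPM at 0 h and still 10.2, 11.0, 9.77 and 11.1 CPM at 5 h, but 0.275, 0.0953, 0.348 and 0.0863 CPM at 18 h, a 92.1-fold drop on 1 to 4 counts a library. Bub1, a checkpoint kinase, went from 19.8, 26.4, 17.3 and 20.5 CPM to 8.65, 7.34, 7.33 and 8.16 CPM and 1.28, 1.14, 1.91 and 1.47 CPM in WT. Its relative Bub1b (BubR1) and Ttk (Mps1) had log2 fold changes at 18 h of -2.92 and -3.76 in WT. Mad2l1 (Mad2), the checkpoint protein that binds Cdc20, was the member least changed at 5 h in WT (-0.14, log2). It was at 32.9, 33.5, 30.5 and 32.2 CPM at 0 h, 30.7, 28.2, 25.9 and 32.2 CPM at 5 h and 11.5, 8.96, 12.5 and 11.9 CPM at 18 h in WT. In KO its change at 18 h was -0.77 (log2), short of the limit.

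All 5 kinetochore and centromere genes fell at 18 h in both genotypes, as did 5 of 6 spindle motors and microtubule proteins and all 6 genes of the central spindle and cytokinesis. Cenpa went from 45.9, 36.9, 47.7 and 44.0 CPM to 4.85, 4.57, 5.83 and 6.22 CPM in WT. Cenpf had the largest estimated change of the module: it had 17.8 to 28.1 CPM in WT at 0 h and 0 to 2 counts a library at 18 h, a ratio of 163 (95% counting interval 74.8 to 446). This interval covers the drop given above for Ube2c, so the counts do not settle which of them changed more. Cenpe, a kinetochore motor, was still at 31.3 ± 1.45 CPM (mean ± SD) at 5 h in WT, against 36.5 ± 5.81 at 0 h, and Ndc80 and Nuf2, which tie kinetochores to microtubules, had log2 fold changes of -2.86 and -3.49 at 18 h. Kif11, the motor that pushes spindle poles apart, was at 44.6, 49.7, 38.9 and 35.5 CPM at 0 h, 4.55, 6.36, 5.55 and 8.75 CPM at 5 h and 2.01, 1.91, 1.74 and 1.21 CPM at 18 h in WT. Kif4 had 19.0 ± 2.62 CPM at 0 h, 16.7 ± 0.604 CPM at 5 h and 0.921 ± 0.0982 CPM at 18 h in WT. Nusap1 had 26.0 ± 2.49, 17.9 ± 2.64 and 1.28 ± 0.259 CPM at these times, and Hmmr, which had already fallen at 5 h, 21.6 ± 2.93, 7.22 ± 0.771 and 1.79 ± 0.133 CPM. At 18 h Kif2c had a log2 fold change of -4.84. Of the cytokinesis genes, Prc1, which bundles the microtubules of the central spindle, went from 40.1, 43.3, 37.7 and 41.0 CPM at 0 h to 11.4, 13.0, 12.9 and 10.8 CPM at 5 h and 1.92, 2.48, 2.09 and 3.45 CPM at 18 h in WT. Kif23 was the member that fell furthest by 5 h in WT, with a log2 fold change of -3.999, and had -3.81 at 18 h. Anln, Ect2, Kif20a and Racgap1 had -5.11, -3.18, -2.73 and -4.47 at 18 h in WT.

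Tpx2 (chr2:152847964-152895321) ran the other way. It had 48.5, 52.9, 44.9 and 45.4 CPM in WT at 0 h, 49.9, 53.1, 55.2 and 57.6 CPM at 1 h, 119, 106, 102 and 118 CPM at 5 h and 139.7, 173, 159 and 138 CPM at 18 h. In KO it had 41.6, 45.4, 37.2 and 42.1 CPM at 0 h, 44.6, 42.4, 47.7 and 45.4 CPM at 1 h, 193, 141, 112 and 109 CPM at 5 h and 254, 257, 272 and 398 CPM at 18 h. Every 5 h and 18 h library was above every 0 h library of its genotype. The level at 18 h was 3.18-fold that at 0 h in WT (log2 fold change 1.67 ± 0.14, adjusted p = 6.8e-12, edgeR) and 7.09-fold in KO (2.83 ± 0.15, adjusted p = 3.8e-17, edgeR). Without KO replicate 4 the log2 fold change in KO was 2.65. Aurka, the kinase that Tpx2 activates, fell over the same time.

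**Figure D3:**
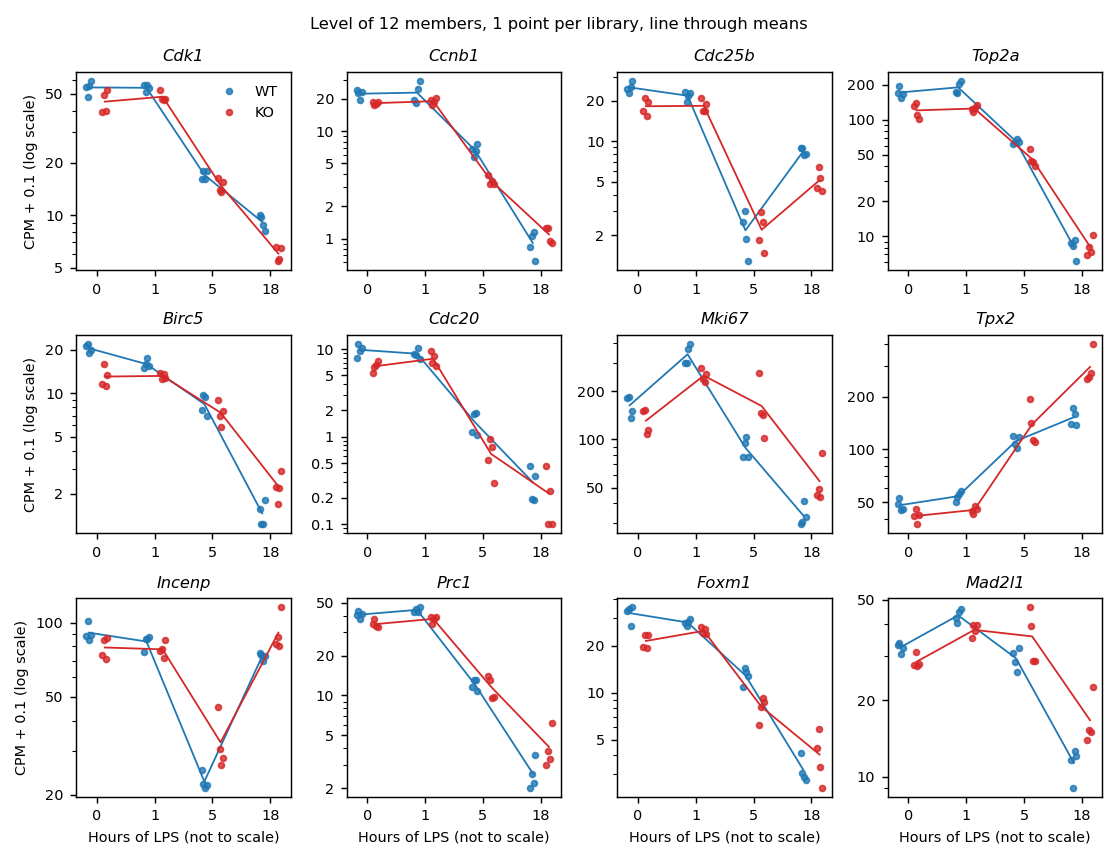
CPM + 0.1 (y axis, log scale) of 12 members against hours of LPS (x axis, not to scale) in WT (blue) and KO (red), with 1 point per library and a line through the group means. Cdk1, Ccnb1, Top2a and Cdc20 are lower at 5 h than at 0 h and lower still at 18 h, Cdc25b and Incenp are lowest at 5 h, Mki67 peaks at 1 h, and Tpx2 climbs to 254 to 398 CPM in KO at 18 h.

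Between 5 h and 18 h, 27 members fell further and 2 rose in WT, where 14.3% of all genes fell and 15.9% rose, and 26 fell and 3 rose in KO, where both shares were 14.3%. Those that rose were Cdc25b and Incenp in both genotypes and Tpx2 in KO (log2 fold change 1.09, 0.91 to 0.998 without KO replicate 3 or 4 at 5 h or KO replicate 4 at 18 h, where it is not called, and 0.45 in WT). Ube2c had the largest drop in this interval in both, with log2 fold changes of -5.63 in WT and -4.91 in KO, while Bub1b and Kif23 had values of -0.21 and 0.19 in WT.

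Before stimulation, all 38 members had a lower fitted level in KO than in WT, and the differences were small. The comparison of the genotypes at each time asks what the loss of Nur77 does to the module, and calls were made at edgeR adjusted p values below 0.05 with differences of more than 0.58 log2 units. At 0 h the median log2 fold change of the members was -0.36, against -0.03 for all genes tested. Here 5 members were lower and 0 higher, where 2.44% of all genes were lower and 2.38% higher. Without the limit on size, 14 members were lower and 0 higher, against 6.38% and 6.29% of all genes. The most marked was Birc5, at 11.5, 15.8, 11.2 and 13.4 CPM in KO and 21.1, 21.8, 19.1 and 19.9 CPM in WT, a level 1.57-fold lower (log2 fold change -0.65 ± 0.12, adjusted p = 0.00038, edgeR). Plk1 had 8.38, 12.3, 10.9 and 11.7 CPM in KO and 14.3, 18.9, 14.9 and 17.6 in WT (-0.60 ± 0.12, adjusted p = 0.00068, edgeR). Foxm1 was at 19.5, 23.4, 19.1 and 23.3 CPM in KO and 33.1, 34.1, 26.6 and 35.04 in WT (-0.59 ± 0.14, adjusted p = 0.0035, edgeR). Cdc20 had 5.28, 6.19, 6.44 and 7.16 CPM in KO and 7.86, 11.3, 9.45 and 10.3 in WT (-0.63 ± 0.19, adjusted p = 0.024, edgeR). Aurkb had 12.8, 14.0, 9.81 and 12.4 CPM in KO and 19.0, 19.0, 18.4 and 18.1 in WT (-0.60 ± 0.15, adjusted p = 0.0075, edgeR). For each of these 5, every KO library was below every WT library. The 5 were called on these same libraries, so this adds no support, and the share of all genes without overlap was not counted. Top2a, at 131, 138, 109 and 102 CPM in KO against 170.0, 194, 152 and 167 CPM in WT, had an adjusted p of 0.0028 but missed the limit with -0.51. Birc5 was called without any 1 of the 8 libraries, while leaving out 1 library ended the call of Aurkb once (KO replicate 3), of Plk1 3 times (WT replicates 2 and 4, KO replicate 1), of Foxm1 5 times and of Cdc20 5 times. The values lie near the limit: the count was 2 with the trend with GC content removed or with DESeq2's size factors, 2 without WT replicate 2, WT replicate 4, KO replicate 1 or KO replicate 3, and 8 without KO replicate 2. The summed granulocyte and progenitor markers were higher in KO at this time, at 39.6 to 48.3 CPM against 26.4 to 38.8 CPM in WT, with 3 of 6 tested genes called higher, and their part in the result was not tested.

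After 1 h of LPS, the picture was nearly the same. All 38 members had again a lower fitted level in KO, with a median log2 fold change of -0.28 against 0.00 for all genes, but 1 member was called lower and 0 higher, where 1.36% of all genes were lower and 1.51% higher. This was Top2a, at 123, 116, 127 and 132 CPM in KO and 172, 168, 202 and 214 CPM in WT, without overlap (log2 fold change -0.60 ± 0.12, adjusted p = 0.00071, edgeR). Without the limit on size 4 members were lower, Kif11, Kif4 and Nusap1 besides, against 3.04% of all genes lower and 3.47% higher. The call of Top2a was lost without WT replicate 3 (-0.57), WT replicate 4 (-0.54) or KO replicate 2 (-0.57) of this time and with the GC trend removed. The granulocyte and progenitor markers summed to 55.8 to 62.6 CPM in KO and 38.8 to 45.1 CPM in WT, and their part was not tested.

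At 5 h the members went both ways. Of them, 4 were lower and 1 was higher in KO, where 3.13% of all genes were lower and 5.61% higher, the median was -0.20 against 0.02 for all genes, and 25 of 38 had a negative value. Without the limit on size, 8 were lower and 2 higher, against 10.6% and 13.5% of all genes. Ccnb1 had 3.82, 3.10, 3.36 and 3.14 CPM in KO and 6.72, 5.63, 6.44 and 7.45 CPM in WT, a 1.96-fold difference without overlap (log2 fold change -0.97 ± 0.16, adjusted p = 6.5e-05, edgeR). Cdc20 was at 0.436, 0.839, 0.671 and 0.196 CPM in KO and 1.02, 1.71, 1.78 and 0.946 CPM in WT (-1.30 ± 0.40, adjusted p = 0.019, edgeR). Its means at 5 h, 0.30 RPKM in KO and 0.76 RPKM in WT, were under the filter, which it passed in other groups. Foxm1 had 6.11, 8.05, 9.20 and 8.65 CPM in KO and 10.7, 14.2, 13.5 and 12.8 CPM in WT (-0.67 ± 0.16, adjusted p = 0.0037, edgeR). Aurkb had 1.75, 2.097, 2.30 and 2.36 CPM in KO and 3.19, 4.41, 4.22 and 3.31 CPM in WT (-0.82 ± 0.23, adjusted p = 0.011, edgeR). For these 4, no KO library reached the WT range. They too were called on these same libraries, and the share of all genes without overlap was not counted. Mki67 was the member that was higher, at 258, 146, 141 and 101 CPM in KO and 77.9, 95.2, 103 and 77.9 CPM in WT (0.87 ± 0.21, adjusted p = 0.0035, edgeR), and the groups overlap by 1 library. Without KO replicate 1, which stands apart, its log2 fold change was 0.55 (adjusted p = 0.037, edgeR), under the limit, Cdc20 had -1.21 (0.059) and Foxm1 -0.57 (0.016), while Ccnb1 (-1.04) and Aurkb (-0.75) were still called. Cdc20 was also lost without WT replicate 2 (-1.18) or WT replicate 3 (-1.14). The count was 8 without WT replicate 1 and also 8 with the GC trend removed (6 lower and 2 higher), and 1 when only the libraries of this time were fitted. The granulocyte and progenitor markers summed to 48.8 to 55.6 CPM in KO and 36.7 to 49.3 CPM in WT, with 1 of 6 called higher. The macrophage markers summed to 13575 to 16512 CPM in KO and 16968 to 18441 CPM in WT, without overlap, and the part of either list was not tested. The macrophage sum is weighted to Lyz2, which had a median of 8685 CPM over all libraries.

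At 18 h, 4 members were higher and 3 lower in KO, where 5.7% of all genes were higher and 4.12% lower. The median was 0.12 against -0.01 for all genes. It was 0.02 with total counts alone, under which 19 members rather than 15 had a negative value and 2 rather than 4 were called higher. For members with at most 3 counts in each library of a group, negative values were also set to the upper end of their 95% counting interval. The median was then 0.15. That end can lie above 0, so this setting can only raise the median. Without the limit on size, 5 were higher and 3 lower, against 11.7% and 9.8% of all genes. For 38 members these counts are near the shares of all genes. Tpx2 was 1.94-fold higher in KO, with 254, 257, 272 and 398 CPM against 139.7, 173, 159 and 138 CPM in WT and no overlap (log2 fold change 0.95 ± 0.14, adjusted p = 2.9e-06, edgeR). Mki67 had 44.7, 49.2, 43.5 and 81.9 CPM in KO and 29.4, 30.5, 41.1 and 32.5 CPM in WT (0.72 ± 0.21, adjusted p = 0.015, edgeR). Prc1 was at 2.87, 3.74, 3.23 and 6.14 CPM in KO and 1.92, 2.48, 2.09 and 3.45 CPM in WT (0.68 ± 0.20, adjusted p = 0.013, edgeR). Birc5 was at 2.15, 1.60, 2.103 and 2.78 CPM in KO and 1.46, 1.14, 1.13 and 1.73 CPM in WT (0.66 ± 0.21, adjusted p = 0.022, edgeR). For both Prc1 and Birc5 the ranges overlap. Cdk1 was lower, at 6.45, 5.35, 5.47 and 6.38 CPM in KO and 9.89, 9.63, 8.70 and 8.03 CPM in WT, with every KO library below every WT library (-0.62 ± 0.11, adjusted p = 0.00013, edgeR). Its activator Cdc25b was lower too, at 4.39, 6.33, 5.19 and 4.17 CPM in KO and 8.79, 8.77, 7.83 and 7.86 CPM in WT (-0.73 ± 0.16, adjusted p = 0.0013, edgeR). So was Kif23, at 1.52, 0.981, 1.54 and 1.8005 CPM in KO and 2.65, 2.57, 2.09 and 2.24 CPM in WT (-0.69 ± 0.24, adjusted p = 0.035, edgeR). Birc5 (0.65 RPKM in KO and 0.41 in WT) and Kif23 (0.43 and 0.70) had means under the filter at 18 h. Both were tested because they passed it in other groups. Without KO replicate 4, which stands apart, Mki67 (0.45), Prc1 (0.39) and Birc5 (0.51) were no longer called, while Tpx2 (0.78), Cdk1 (-0.66), Cdc25b (-0.65) and Kif23 (-0.80) were, 4 members in all. Without WT replicate 1, 3 members were called, since Mki67, Prc1, Cdk1 (-0.57) and Kif23 (-0.64) were lost. Tpx2 and Cdc25b kept the call without any 1 of the 8 libraries, Cdk1 was also lost without KO replicate 2 (-0.57) or KO replicate 3 (-0.58), Birc5 without WT replicate 2 (0.58) or WT replicate 3 (0.57), and Kif23 without 6 of the 8. Cenpf, Cdc20, Ube2c and Cdc25c, with 0 to 5 counts in each of these libraries, allow no comparison of the genotypes at this depth. The macrophage markers summed to 11465 to 13086 CPM in KO and 14414 to 15124 CPM in WT, without overlap, and their part was not tested. Lyz2, at a median of 8685 CPM over all libraries, weighs most in this sum, and the direction of each marker is not given here.

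**Figure D4:**
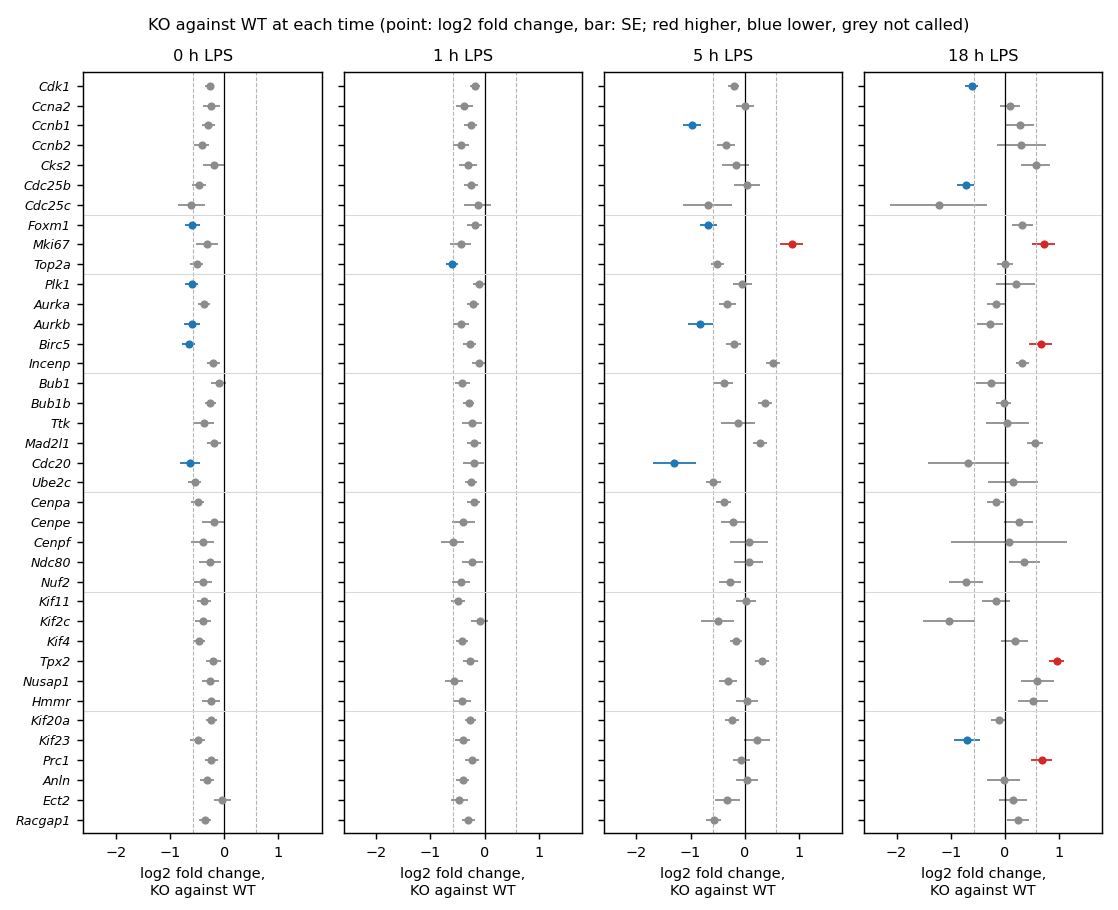
Log2 fold change of KO against WT (x axis) with its SE (bar) for each of the 38 members (rows, grouped by role) at 0, 1, 5 and 18 h of LPS (panels), red where called higher, blue where called lower, grey where not called, with dashed lines at the limits of -0.58 and 0.58. All points lie left of 0 at 0 h and 1 h, and they spread to both sides at 5 h and 18 h.

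The response to LPS itself was compared between the genotypes by the interaction term, the log2 fold change of LPS against 0 h in KO minus that in WT, with an adjusted p under 0.05 as the call. At 18 h, 7 members had a positive term and 0 a negative one, where 5.36% of all genes had a positive and 4.03% a negative one, and the median of the members was 0.47 against 0.02 for all genes. At 5 h, 3 were positive and 0 negative, against 1.73% and 1.37% of all genes, with a median of 0.11 against 0.03. The terms at 5 h and 18 h share the 0 h libraries, in which all members had the lower level in KO. At 18 h the term of Birc5 was 1.31 ± 0.24, adjusted p = 0.00033 (edgeR), from a drop of 14.8-fold in WT and 5.98-fold in KO. For Tpx2 it was 1.16 ± 0.19, adjusted p = 0.00011 (edgeR), a rise in both genotypes that was larger in KO. Mki67 (1.04), Prc1 (0.91), Foxm1 (0.91) and Mad2l1 (0.75) were below their 0 h level in both genotypes and by less in KO, with adjusted p of 0.02, 0.01, 0.012 and 0.011 (edgeR). Incenp, whose level at 18 h was near that at 0 h in both, had 0.52 ± 0.17, adjusted p = 0.047 (edgeR). At 5 h the called members were Mki67 (1.19 ± 0.29, adjusted p = 0.017, edgeR), Incenp (0.73 ± 0.18, adjusted p = 0.016, edgeR) and Bub1b (0.63 ± 0.17, adjusted p = 0.03, edgeR). Without KO replicate 4 at 18 h, the terms of Mki67 (0.77) and Incenp (0.38) missed the threshold at 18 h and those of Birc5 (1.17), Tpx2 (0.98), Foxm1 (1.09), Mad2l1 (0.56) and Prc1 (0.63) passed it. Without KO replicate 1 at 5 h all 3 members of 5 h passed it. Leaving out 1 of the 16 libraries ended the call of Incenp at 18 h in 12 cases and of Bub1b at 5 h in 8, that of Mki67 at 18 h also without KO replicate 3 at 0 h (0.95) and that of Foxm1 without KO replicate 2 at 18 h (0.67).

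**Figure D5:**
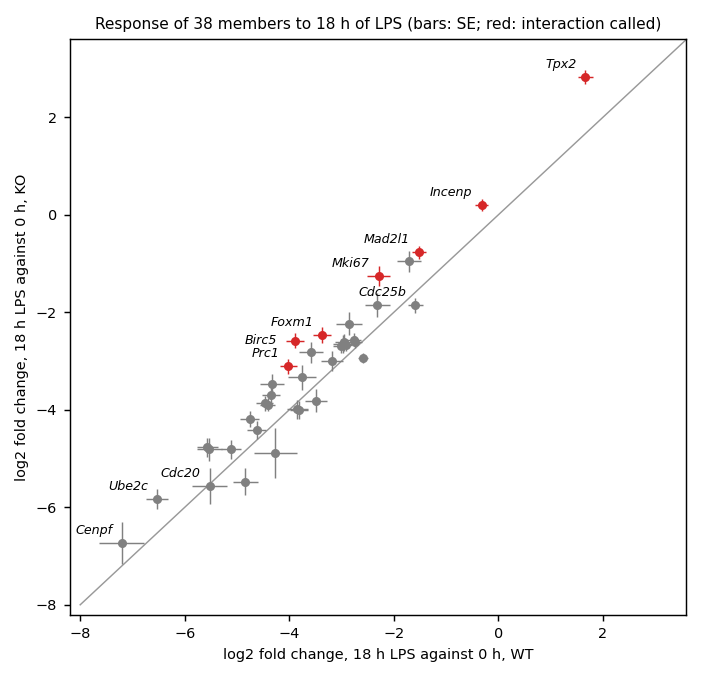
Log2 fold change of 18 h LPS against 0 h in WT (x axis) and KO (y axis) for the 38 members, with bars for the SE, the line of equal change in grey, and members with a called interaction in red. The 7 red points, among them Tpx2 at 1.67 in WT and 2.83 in KO, lie above the line.

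The other genes of the cell cycle machinery were taken from lists that do not hold the members. Of 84 further mitosis genes tested, 68 fell and 1 rose at 18 h in WT and 68 fell and 2 rose in KO, with medians of -3.04 and -2.75. Of 57 genes of DNA replication and the entry into S phase, 46 fell and 0 rose in WT and 44 fell and 1 rose in KO, with medians of -1.998 and -1.86. Of all genes tested, 14.3% fell and 13.1% rose at 18 h in WT, and 16.4% fell and 15.4% rose in KO. Mcm2, a subunit of the replicative helicase, had a log2 fold change of -2.58 in WT and the ribonucleotide reductase subunit Rrm2 of -6.08, while the sliding clamp Pcna (-0.64) and the S phase activator E2f1 (-0.06) were not called. E2f1 was lower at 5 h in between. It went from 29.4 CPM at 0 h to 10.1 CPM at 5 h and 28.3 CPM at 18 h in WT, and from 24.9 to 9.18 and 24.2 CPM in KO. In KO against WT at 0 h, 9 of the 84 mitosis genes and 4 of the 57 replication genes were lower and 0 of either list higher. Of all genes tested, 2.44% were lower and 2.38% higher. In these lists 76 and 54 genes had a negative value, with medians of -0.31 and -0.33 against -0.03 for all genes tested. At 18 h the interaction was positive for 6 and negative for 1 of the 84 mitosis genes and positive for 5 and negative for 2 of the 57 replication genes, where it was positive for 5.36% and negative for 4.03% of all genes tested.

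Genes that act ahead of the module moved in several directions. Cdkn1a (p21), an inhibitor of cyclin-dependent kinases, rose from a mean of 318 CPM at 0 h to 1016 CPM at 1 h and 2077 CPM at 5 h in WT (1.68 and 2.71, log2). By 18 h it had come down to 638 CPM in WT, and in KO it was at 595 CPM against 317 CPM at 0 h. Its KO against WT values lay between -0.10 and 0.09 at the 4 times. Of 28 inhibitors and genes of cell cycle exit, 7 rose and 6 fell at 18 h in WT, where 13.1% of all genes rose and 14.3% fell. In KO against WT at 18 h, 9 of them were higher and 2 lower, where 5.7% of all genes were higher and 4.12% lower. Among the higher, Wee1, the kinase that keeps Cdk1 inactive, was higher in KO at 5 h (0.83 ± 0.15, adjusted p = 0.00024, edgeR) and at 18 h (0.94 ± 0.16, adjusted p = 3.6e-05, edgeR). Among the lower, Cdkn1c had 3.03 to 4.75 CPM in KO and 6.96 to 8.18 CPM in WT at 18 h. The D-type cyclins differed: Ccnd1 was lower at 18 h than at 0 h in WT (-1.18). Ccnd2 rose from 28.8 CPM to 718 CPM at 5 h in WT and stood at 76.3 CPM in WT and 262 CPM in KO at 18 h (1.78 ± 0.07, adjusted p = 2e-17, edgeR). Ccne1 (cyclin E1), which drives entry into S phase, was at 47.5 CPM in KO and 13.7 CPM in WT at 18 h (1.79 ± 0.11, adjusted p = 1.4e-13, edgeR). Other replication genes went either way at 18 h. E2f2 was lower in KO (0.701 to 1.34 against 2.61 to 3.66 CPM in WT), as was Pcna (197 to 230 against 290 to 352 CPM). Tyms was higher in KO (1.47 to 2.41 against 0.518 to 1.28 CPM). Mybl2, part of the activating MuvB complex, was lower in KO at 5 h (-0.999 ± 0.26, adjusted p = 0.0068, edgeR). Myc, a growth factor target, had a higher mean at 1 h than at 0 h in both genotypes. It went from 37.3 to 114 CPM in WT and from 34.95 to 123 CPM in KO. By 18 h it had fallen to 0.911 CPM in WT (-5.36 against 0 h, log2) and to 1.49 CPM in KO. Csf1r, the receptor for M-CSF, was lower in KO than in WT at 18 h (-0.62 ± 0.13, adjusted p = 0.00086, edgeR), at 746 CPM against 1149 CPM. Without the KO libraries that stand apart, Wee1 (0.70 at 5 h and 0.79 at 18 h), Mybl2 (-1.04), Ccnd2 (1.75) and Ccne1 (1.78) were still called, and Csf1r (-0.50) was under the limit of size.

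Several members share exons with a gene on the opposite strand, and the strand setting of the counting is not stated beyond the default of the HOMER script. This holds for Prc1 with Rccd1 (911 shared bases of 8225 exonic bases), Kif4 with Pdzd11 (832 of 5514) and Ube2c with Tnnc2 (592 of 2600). It also holds for Kif20a with Cdc23 (1271 of 4338), Cdc25c with Gm3550 (623 of 4919) and Ccna2 with Exosc9 (510 of 4083). Cdc20, Cdc25b, Nusap1 and Plk1 share fewer than 200 bases. Tpx2 and Incenp share none.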

How the data were processed

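RNA-seq was done on 32 libraries of bone marrow-derived macrophages, 4 in each of 8 groups, prepared with the strand-specific KAPA mRNA HyperPrep kit. The authors aligned the reads to mm10 with HISAT2 (version 2.1.0 in the submitters' processing notes), removed reads of low mapping quality with SAMtools and summed tags per transcript with HOMER's analyzeRepeats.pl. The deposited values are estimated counts per transcript in steps of 0.5, not normalized, and 28.6% of them were not whole. That script was run at its defaults, and the strand setting which these imply is not spelled out in the methods.

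The counts were rounded. Of 42361 transcripts, 42198 were named through RefSeq and 70 through GENCODE, and 93 with no name, 0.233% to 1.37% of the tags of a library, were left out. The 25067 genes were each represented by their most abundant transcript, and 11279 of them, those whose RPKM averaged above 1 in any group, entered the tests. A group mean was fitted for each of the 8 groups over all 32 libraries with TMM scaling and edgeR's quasi-likelihood test (edgeR 4.0.16, limma 3.58.1, R 4.3.3), with Benjamini-Hochberg adjustment over all 11279 genes. CPM are TMM-scaled. Calls were made at adjusted p values below 0.05, with differences of more than 0.58 log2 units between genotypes or more than 1 between times, and for the interaction on the adjusted p alone. No pairing of replicates was used: the labels do not tie the numbers to an animal, litter or day, and same-numbered libraries did not deviate together. Replicates differed beyond sampling noise. The depth of 8742362 to 15780926 tags limits members with few counts at 18 h, and intervals cover counting error only.

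The members, the other gene lists and the rule for the members given by library were chosen with earlier results of these data known. The fit was tested on simulated counts with known fold changes in KO at 18 h. These counts held neither the GC trend of single libraries nor the LPS response, so the test does not cover them. Alternatives were DESeq2 1.42.0, other scaling, filters and transcript choices, fits of the compared libraries alone, replicate blocks, removal of the trend with GC content and leaving out each library in turn. Removing the GC trend, calling members with total counts alone and leaving out single libraries for genes outside the members were chosen after seeing the data. Promoters came from the RefSeq table of GRCm38.p6.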

Additional observations from a re-analysis of the deposited data

Results flagged for a closer look

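Of 176 sets of 4 libraries checked, for the named members and their sum in each group, 6 held 1 library far from the other 3 by Dixon's test, and chance alone flags about 1 in 20. KO replicate 4 at 18 h, which stands apart in its GC trend, was the highest for Mki67 (81.9 CPM), Tpx2 (398 CPM) and the summed level of the members (719 CPM). Cdk1 was set apart in KO replicate 1 at 1 h (52.3 CPM), Ccnb2 in WT replicate 3 at 1 h (12.4 CPM) and Plk1 in WT replicate 4 at 1 h (14.4 CPM).

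The response to LPS differed between the genotypes by edgeR's test of the interaction for 3 members at 5 h and 7 at 18 h, each with the higher value in KO. At 5 h the log2 differences in response were 0.63 for Bub1b, 0.73 for Incenp and 1.19 for Mki67. At 18 h they were 1.31 for Birc5, 1.16 for Tpx2, 1.04 for Mki67, 0.91 for Prc1, 0.91 for Foxm1, 0.75 for Mad2l1 and 0.52 for Incenp. The part of libraries that stand apart is given beside these results in the report.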

How the results depend on the processing

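No called value changed direction under any alternative run. Of 2525 recomputed values for 130 results of named members, 2411 stayed on the same side of the call and 114 lost it, in 26 results. The count of members called between genotypes (main values 5, 1, 5 and 7 at 0, 1, 5 and 18 h) became 2 at 0 h with DESeq2's Wald test, with its size factors, with the compared libraries alone and with the GC trend removed, and 14 with no limit on size. At 1 h it was 2 with the compared libraries alone, 4 with no limit and 0 with the GC trend removed. At 5 h it was 1, 10 and 8 under these settings, and at 18 h it was 4 with the compared libraries alone. In that fit of 18 h, Prc1 had an adjusted p of 0.14 (edgeR). Birc5 and Kif23 did not pass the RPKM filter there and were not tested, and Cdc20 did not pass it in that fit of 5 h. For 1 h of LPS in WT (main value 1), it was 2 with DESeq2's test, its size factors, the compared libraries alone or a replicate block within genotype, 5 with no limit and 0 with total counts. In KO (main value 0), it was 3 with no limit. The interaction at 5 h (main value 3) gave 1 with the compared libraries alone and 5 with the GC trend removed. The summed level as a percent of 0 h, in the order WT at 5 h, WT at 18 h, KO at 5 h and KO at 18 h, was 44.0, 27.0, 61.4 and 52.1; it was 28.3, 20.9, 39.3 and 37.9 with total counts and 56.4, 49.5, 78.8 and 105 with all transcripts summed, which counts shared exons more than once. The causes of these shifts were otherwise not tested.

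Leaving out 1 library at a time gave 2 to 8 calls between genotypes at 0 h, 0 to 1 at 1 h, 4 to 8 at 5 h and 3 to 7 at 18 h, and 0 to 2 for 1 h of LPS in WT and also in KO. The interaction gave 2 to 4 calls at 5 h and 5 to 9 at 18 h. The sums spanned 26.1% to 27.9% in WT at 18 h, 54.0% to 65.7% in KO at 5 h and 46.5% to 54.5% in KO at 18 h. The replicate numbers did not pair the libraries: of 112 correlations between same-numbered libraries, 33 were over 0.1 (median -0.02), and 23 of 112 times a library correlated best with its own number. A replicate block across all libraries changed no count of calls (KO against WT at 18 h: 7 calls). A replicate block within genotype moved the 1 h count in WT as given above and ended the interaction calls of Bub1b at 5 h (0.62, edgeR adjusted p = 0.062) and Incenp at 18 h (0.51, edgeR adjusted p = 0.058), which left 2 and 6 calls. At the depth of these libraries, differences between genotypes at 18 h in Cdc20, Ube2c, Cenpf and Cdc25c were not detectable.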
